A study of Mus musculus with 20 samples.

Results

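The tumour necrosis factor (TNF) superfamily is a set of trimeric cytokine ligands and their receptors. Its members were taken from the deposited expression table by name: every gene whose symbol follows the Tnfsf or Tnfrsf numbering, together with Tnf, Lta, Ltb, Cd40, Cd40lg and Fas, and without Tnfrsf4 and Tnfrsf18. The rule found 35 of the 18722 genes, 15 ligands and 20 receptors, and no measured value entered it. The 20 RNA libraries came from tumours grown from the mouse line U14, a cervical cancer, and formed 4 groups of 5. One group is labelled Solution and served as the control, one received Plerixafor, which blocks the chemokine receptor CXCR4, one received anti-PD-1, an antibody to the T cell checkpoint receptor PD-1, and one received both (Combination). All 4 groups share the tumour line and the library kit. Doses, days of treatment, the strain and age of the mice, and whether each library came from its own animal are not given in the labels, so the p-values below measure the spread between libraries, which may in part be technical.

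Ligands of this family are made mostly by activated lymphocytes and myeloid cells as membrane proteins, and some are shed. Their receptors fall into those with a cytoplasmic death domain, which can recruit FADD and caspase-8, those without one, which recruit TRAF adaptors and signal to NF-kB, and decoys, which bind ligand without signalling through a full death domain. In tumours the family is known for the killing of tumour cells by TRAIL and FAS ligand, for stimulation of T cells through 4-1BB and of antigen-presenting cells through CD40, and for inflammation driven by TNF.

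Expression is given in FPKM, a fragment count divided by gene length and library size, so that levels of different genes can be set side by side. Group values are mean ± SD over n = 5 libraries. Log2 fold changes are on the log2(FPKM + 1) scale, which understates the change of low genes, and carry a standard error (SE). Tests were made with limma, two-sided, and p-values were adjusted by Benjamini-Hochberg over all 12687 genes that reached 1 FPKM in at least 5 libraries; 0.05 was the threshold. Of the members, 29 reached that level and 6 did not (Tnfrsf17, Tnfrsf19, Tnfrsf8, Tnfsf15, Tnfsf18 and Tnfsf4). Among the 29, Tnfsf13 reached 1 FPKM in no Plerixafor or Combination library, Lta in no Plerixafor library, and Cd40lg and Tnfrsf13c in no Combination library.

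The libraries held 16565807 to 19833872 reads, recovered from the steps of the FPKM values. The first principal component of all tested genes, 68.4% of the variance, put the 10 libraries of the Plerixafor and Combination groups at 22.75 to 94.33 and the 10 others at -78.6 to -43.51. Plerixafor library 5 lay at 22.75, nearest to the others. The second component, 20.2% of the variance, set anti-PD-1 libraries 1, 2 and 5 apart at 121.5, 41.71 and 44.44, and these carried the most skeletal muscle RNA, with summed muscle markers of 73499, 20982 and 25948 FPKM against 5.56 to 1164 FPKM in the Solution libraries. Summed T cell markers (11 genes, none at 0 in any library) ran from 194 to 325 FPKM with Solution, 22.4 to 132 with Plerixafor, 55.7 to 197 with anti-PD-1 and 7.55 to 100 with the Combination. Macrophage and monocyte markers (11 genes, none at 0) ran from 11261 to 15134, 1370 to 6169, 1539 to 12190 and 813 to 3875 FPKM in the same order. Fibroblast markers (9 genes, none at 0) ran from 5136 to 8399, 503 to 1910, 1651 to 7803 and 387 to 1477 FPKM, and proliferation markers (8 genes, none at 0) from 35.0 to 49.2, 316 to 593, 13.4 to 90.8 and 463 to 567 FPKM. Epithelial markers, which check the carcinoma label, summed to 117 to 982, 750 to 1069, 9.86 to 231 and 784 to 1156 FPKM, with Krt5 at 0 in at least 1 library of each treated group and Krt17 at 0 in at least 1 anti-PD-1 and 1 Combination library. Against Solution, 8 of the 9 epithelial genes fell with anti-PD-1. With Plerixafor 2 of the 9 rose and 6 fell. In bulk tumour RNA, fewer cells of a type and less RNA per cell cannot be told apart. The part of these cell type differences in the results below was not tested except where a value is given.

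Plerixafor against Solution asks how the family differs in tumours exposed to the CXCR4 antagonist alone. Most members fell: 22 of 29 were lower, where 33.2% of all tested genes were called lower, and 4 were higher, where 42.3% of all tested genes were called higher. The median log2 fold change of the members was -1.19, beside 0.13 for all tested genes. The 4 that rose were receptors: Tnfrsf10b, Tnfrsf12a, Tnfrsf22 and Tnfrsf23. Of the 12 ligands tested, 11 fell and none rose, with a median of -1.25. Of the 17 receptors tested, 11 fell, 4 rose and 2, Tnfrsf13c and Tnfrsf9, did not pass the test. The order of levels also differed. In the Solution group the highest mean levels among the members were those of the TNF receptors, Tnfrsf1a at 105 ± 5.05 FPKM and Tnfrsf1b at 84.5 ± 11.1 FPKM, whose library ranges met at 96.5 and 96.8 FPKM, and then Ltb at 52.7 ± 11.5 FPKM. In the Plerixafor group Tnfrsf12a led at 167 ± 29.4 FPKM, above Tnfrsf1a at 53.9 ± 12.1 FPKM and Tnfrsf10b at 38.8 ± 10.9 FPKM, the last pair overlapping in range.

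**Figure D1:**
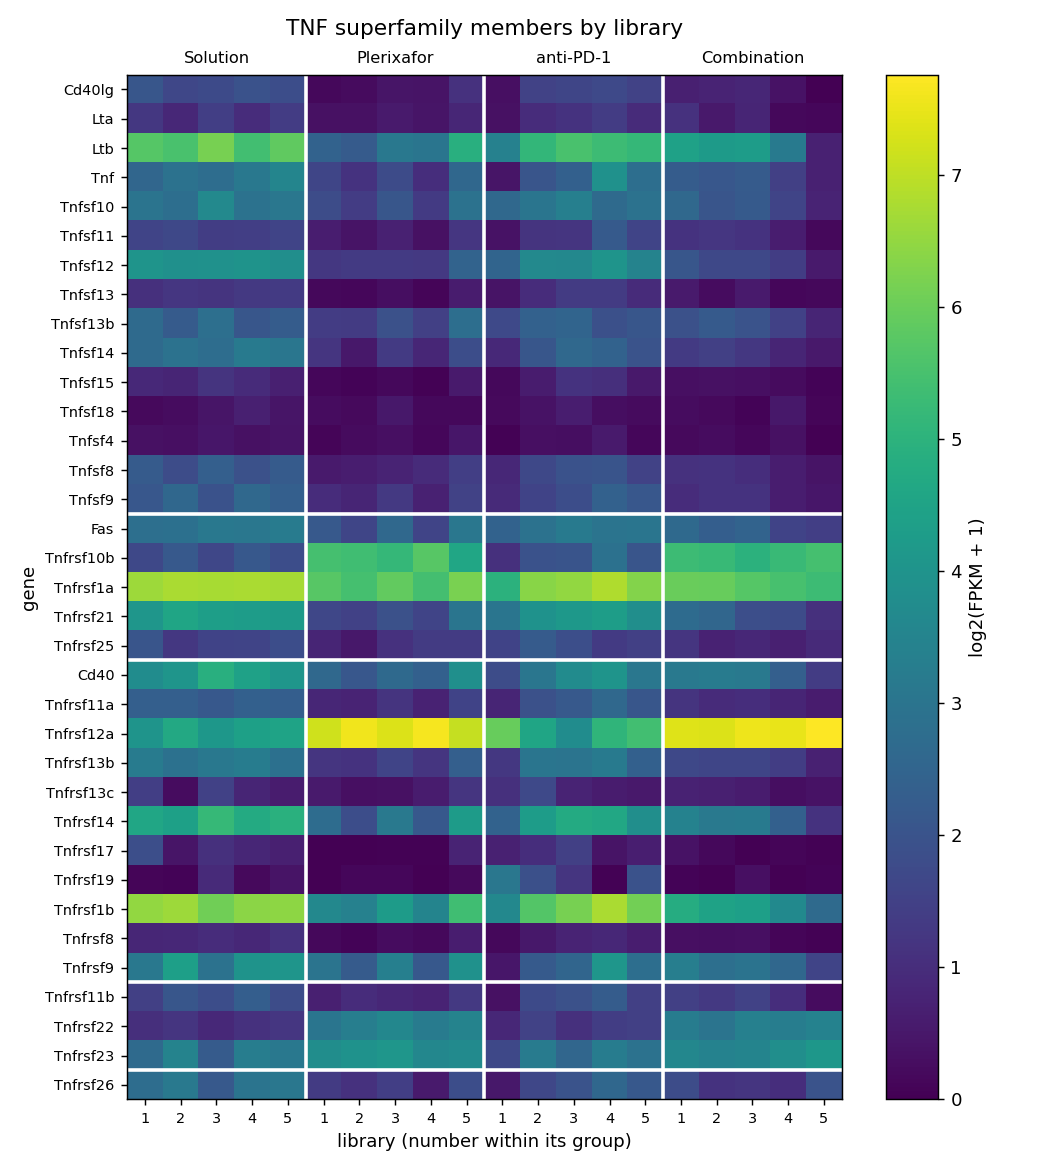
Heat map of log2(FPKM + 1) for the 35 members (vertical) in the 20 libraries (horizontal), grouped by treatment and by the role of the member. Tnfrsf10b, Tnfrsf12a and Tnfrsf22 are high in the 10 Plerixafor and Combination libraries, where most other members are low, and anti-PD-1 library 1 is low for many ligands and receptors.

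The receptors for TRAIL, a ligand that induces apoptosis, gave the largest rise among the members. Tnfrsf10b encodes the death domain TRAIL receptor of the mouse. Its level was 2.24, 3.47, 2.11, 3.35 and 2.57 FPKM in Solution libraries 1 to 5 and 43.0, 40.6, 34.6, 52.5 and 23.0 FPKM in Plerixafor libraries 1 to 5. In the anti-PD-1 libraries it was 1.12, 2.89, 3.02, 6.39 and 3.14 FPKM and in the Combination libraries 38.8, 36.5, 30.8, 37.5 and 43.3 FPKM. Every library given the antagonist stood above every library without it, and the lowest of these was Plerixafor library 5. The summed proliferation markers separated the same libraries, at 316 FPKM or more with the antagonist and at most 90.8 FPKM without it, and were lowest of the antagonist libraries in Plerixafor library 5 as well; their part in the rise was not tested. The mean was 14.1 times the Solution mean in the Plerixafor group (38.8 ± 10.9 against 2.75 ± 0.629 FPKM), a log2 fold change of 3.37 (adjusted p = 1.11e-09, SE 0.25).

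Tnfrsf22 and Tnfrsf23 encode decoy TRAIL receptors known from the mouse. Tnfrsf22 stood at 1.05, 1.28, 0.861, 1.16 and 1.33 FPKM in the Solution libraries and 7.11, 8.99, 11, 8.26 and 10 FPKM in the Plerixafor libraries. It stood at 0.823, 1.89, 1.09, 1.64 and 1.74 FPKM with anti-PD-1 and 8.64, 6.99, 9.35, 8.86 and 9.91 FPKM with the Combination. These ranges were far apart, and Plerixafor library 5, at 10 FPKM, was among the high ones. The log2 fold change with Plerixafor was 2.23 (adjusted p = 8.74e-11, SE 0.13), and the plain ratio of means was 7.99. The rise of Tnfrsf23 was smaller in fitted value, from 7.07 ± 2.55 to 13.3 ± 1.93 FPKM, a log2 fold change of 0.88 (adjusted p = 0.00573, SE 0.27). Its libraries were 5.39, 10, 3.67, 8.68 and 7.59 FPKM in the Solution group, 12.9, 14.5, 16, 11.1 and 12.1 FPKM with Plerixafor, 2.23, 8.38, 4.84, 8.49 and 6.51 FPKM with anti-PD-1 and 11, 9.89, 10.4, 13.3 and 16.3 FPKM with the Combination. Plerixafor and Solution libraries did not overlap, whereas Solution library 2, at 10 FPKM, stood just above Combination library 2, at 9.89 FPKM. The transcripts of Tnfrsf22 and Tnfrsf23 share 719 stretches of 50 bases in GENCODE M21, 17.3% of those of Tnfrsf22 and 18% of those of Tnfrsf23, so reads could have been split between the pair and the smaller change of Tnfrsf23 is uncertain to that extent. An antisense gene, E230032D23Rik, also overlaps 164 bases of Tnfrsf23 exons and 107 bases of Tnfrsf26 exons, and the counting is not stated to use strand.

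Tnfrsf26 lies beside Tnfrsf22 in the genome, with no coding gene between them, and moved the other way. Its level was 5.86, 7.78, 3.47, 6.93 and 7.40 FPKM in the Solution libraries and 1.54, 1.16, 1.70, 0.468 and 2.54 FPKM in the Plerixafor libraries. It was 0.421, 2.16, 2.95, 5.0 and 3.41 FPKM with anti-PD-1 and 2.50, 1.2, 1.31, 1.03 and 2.94 FPKM with the Combination. No Plerixafor or Combination library reached the lowest Solution library, while anti-PD-1 library 4 stood within the Solution range and library 5 just under it. Against Solution, the Plerixafor log2 fold change was -1.57 (adjusted p = 0.000257, SE 0.32). The ligand of the TRAIL receptors, Tnfsf10 (TRAIL itself), fell: it was 6.87, 5.98, 11.5, 6.59 and 7.46 FPKM in the Solution libraries, 2.49, 1.58, 3.22, 1.49 and 6.57 FPKM with Plerixafor, 5.20, 7.11, 9.10, 5.47 and 6.62 FPKM with anti-PD-1 and 5.11, 3.15, 3.61, 1.98 and 0.713 FPKM with the Combination. Plerixafor library 5, at 6.57 FPKM, overlapped the Solution range, and the other 4 stood below it. With the antagonist alone the log2 fold change came to -1.19 (adjusted p = 0.00226, SE 0.31). The signalling receptor and both decoys were higher and their ligand lower in the same tumours, and the level of Tnfrsf10b exceeded that of Tnfsf10 in every Plerixafor and Combination library, in no Solution library and in 1 anti-PD-1 library, number 4 (6.39 against 5.47 FPKM).

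**Figure D2:**
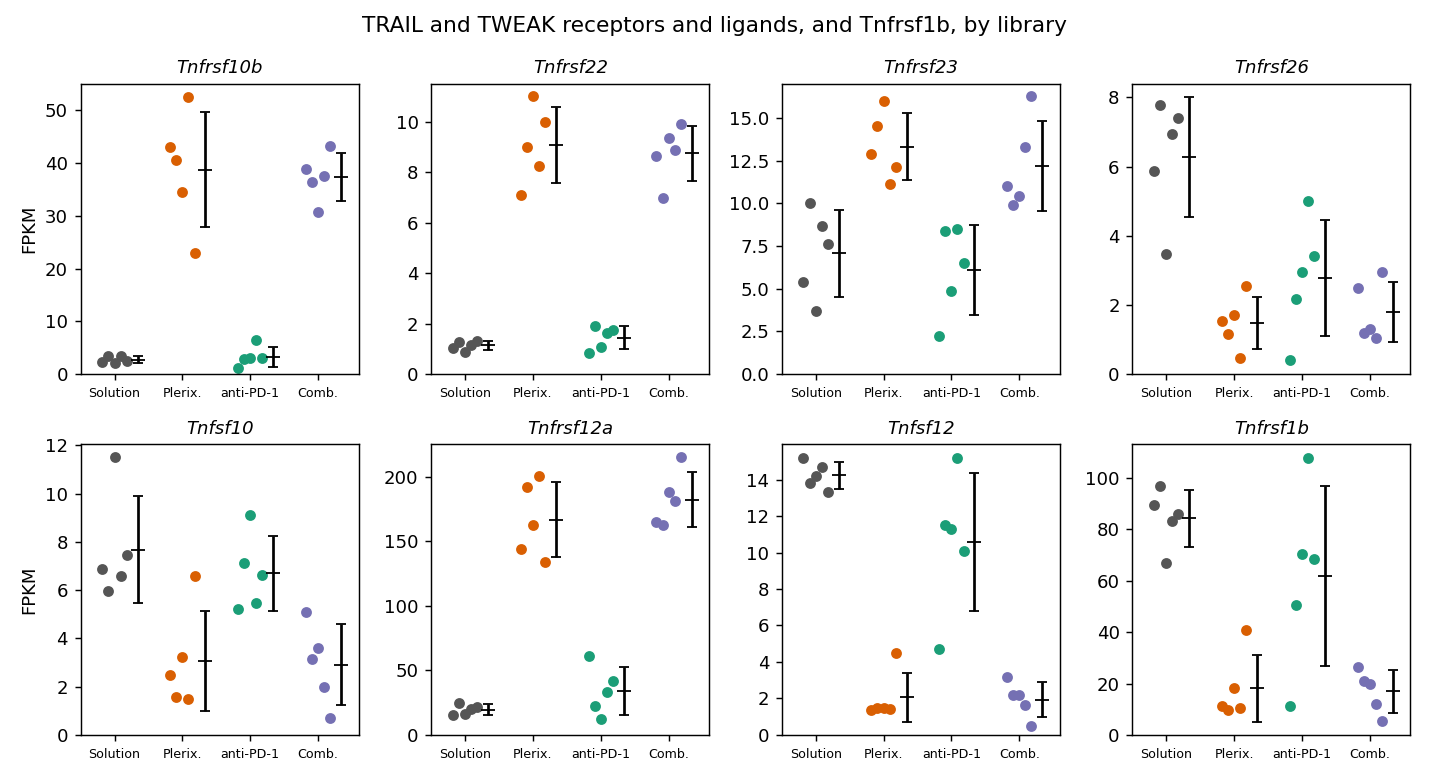
FPKM of 8 members in each of the 20 libraries (points), with the group mean and SD over n = 5 libraries (bars). Tnfrsf10b, Tnfrsf22 and Tnfrsf12a separate the antagonist libraries from the others without overlap, while Tnfrsf26, Tnfsf10, Tnfsf12 and Tnfrsf1b are lower there.

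FN14, encoded by Tnfrsf12a, is a small receptor induced by growth factors and tissue injury, and TWEAK, encoded by Tnfsf12, is its ligand. Tnfrsf12a was 15.1, 24.7, 16.1, 20.2 and 21.8 FPKM in the Solution libraries and 144, 192, 163, 201 and 134 FPKM in the Plerixafor libraries. In the anti-PD-1 libraries it was 61.4, 22.5, 12.6, 33.0 and 41.5 FPKM and in the Combination libraries 165, 163, 188, 181 and 215 FPKM. The lowest antagonist library, at 134 FPKM, was above the highest of the rest, anti-PD-1 library 1 at 61.4 FPKM. The log2 fold change with Plerixafor was 3.03 (adjusted p = 2.14e-08, SE 0.28) and the ratio of means 8.52. Tnfsf12 was 15.2, 13.8, 14.2, 14.7 and 13.3 FPKM in the Solution libraries and 1.39, 1.48, 1.47, 1.43 and 4.48 FPKM in the Plerixafor libraries. It was 4.70, 11.5, 11.3, 15.2 and 10.1 FPKM with anti-PD-1 and 3.17, 2.20, 2.20, 1.65 and 0.473 FPKM with the Combination. Here too the 10 antagonist libraries did not overlap the 10 others, by a margin of 4.48 against 4.70 FPKM. The Plerixafor mean was lower by a ratio of 6.95, a log2 fold change of -2.41 (adjusted p = 5.44e-07, SE 0.29). Exons of Tnfsf12 share 728 bases on the same strand with the read-through gene Tnfsfm13, and reads from the pair cannot be told apart there.

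TNF, the founding ligand, signals through Tnfrsf1a, a death domain receptor on most cells, and Tnfrsf1b, which lacks the domain and is known mainly from immune and endothelial cells. Tnf was 4.89, 6.58, 5.85, 7.69 and 10.6 FPKM in the Solution libraries, 2.05, 1.19, 2.42, 1.04 and 5.01 FPKM with Plerixafor, 0.365, 3.09, 4.15, 14.1 and 6.03 FPKM with anti-PD-1 and 3.80, 3.34, 3.71, 1.79 and 0.646 FPKM with the Combination. Of the antagonist libraries only Plerixafor library 5 reached the Solution range, and anti-PD-1 library 4 was the highest and library 1 the lowest of all 20. In the limma fit Plerixafor changed it by -1.35 (adjusted p = 0.0151, SE 0.47) in log2. Lymphotoxin alpha, from the adjacent gene Lta, binds the same receptors and was low throughout, at 1.39, 0.832, 1.72, 0.961 and 1.61 FPKM in the Solution libraries and 0.269, 0.262, 0.466, 0.353 and 0.777 FPKM with Plerixafor. With anti-PD-1 it was 0.260, 0.965, 1.2, 1.58 and 0.925 FPKM and with the Combination 1.13, 0.452, 0.740, 0.132 and 0.0985 FPKM. The Plerixafor libraries lay below all Solution libraries, and the log2 fold change was -0.69 (adjusted p = 0.0043, SE 0.20). Lta entered the test through 3 Solution, 2 anti-PD-1 and 1 Combination library at 1 FPKM or more, and no Plerixafor library.

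Of the TNF receptors, Tnfrsf1b changed more than Tnfrsf1a in fitted value, though the difference between the genes was not tested. Tnfrsf1b was 89.4, 96.8, 66.8, 83.2 and 86.1 FPKM in the Solution libraries, 11.4, 9.72, 18.3, 10.4 and 40.7 FPKM with Plerixafor, 11.2, 50.7, 70.6, 108 and 68.5 FPKM with anti-PD-1 and 26.6, 21.0, 19.9, 11.9 and 5.45 FPKM with the Combination. All 10 antagonist libraries were below every Solution library, and anti-PD-1 spread from 11.2 to 108 FPKM. Plerixafor gave a log2 fold change of -2.36 (adjusted p = 0.000356, SE 0.50). Tnfrsf1a was 96.5, 109, 106, 108 and 103 FPKM in the Solution libraries, 52.8, 43.7, 58.2, 42.4 and 72.2 FPKM with Plerixafor, 30.7, 82.0, 88.9, 113 and 79.5 FPKM with anti-PD-1 and 62.7, 60.6, 51.1, 43.9 and 38.9 FPKM with the Combination. The Solution libraries were tightly grouped and above every antagonist library. Its log2 fold change with Plerixafor was -0.97 (adjusted p = 0.00181, SE 0.25), so that a mean of 53.9 ± 12.1 FPKM remained.

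The other death domain receptors fell. Fas, the receptor of FAS ligand, was 6.10, 6.29, 7.66, 7.43 and 8.34 FPKM in the Solution libraries, 3.49, 2.07, 5.18, 2.00 and 7.38 FPKM with Plerixafor, 4.47, 6.51, 7.93, 6.91 and 7.13 FPKM with anti-PD-1 and 5.26, 4.02, 4.48, 1.94 and 1.70 FPKM with the Combination. Plerixafor library 5 fell within the Solution range and the Combination libraries below it. Against Solution, the Plerixafor log2 fold change was -0.81 (adjusted p = 0.0118, SE 0.27). DR6, encoded by Tnfrsf21, was 15.8, 22.6, 19.2, 18.7 and 17.9 FPKM in the Solution libraries, 2.11, 1.81, 2.76, 2.03 and 7.10 FPKM with Plerixafor, 7.11, 14.4, 16.4, 19.1 and 13.2 FPKM with anti-PD-1 and 5.60, 4.84, 2.64, 2.44 and 1.10 FPKM with the Combination. The highest antagonist library, 7.10 FPKM, fell just short of the lowest of the others, 7.11 FPKM. Its log2 fold change of -2.37 (adjusted p = 2.14e-06, SE 0.32) was the largest fall among the tested receptors, on this scale and by the ratio of means (5.95-fold). DR3, encoded by Tnfrsf25 and known as a costimulator of T cells, went from 2.20 ± 0.654 to 1.08 ± 0.489 FPKM, a log2 fold change of -0.63 (adjusted p = 0.0058, SE 0.19), with overlapping ranges. Of the 5 death domain receptors, Tnfrsf10b alone rose and the other 4 fell, in Plerixafor and in Combination tumours alike.

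Lymphotoxin beta, the membrane partner of lymphotoxin alpha and an organiser of lymphoid tissue, had the largest fall of any tested member with Plerixafor on the log2(FPKM + 1) scale. By the ratio of mean FPKM it fell 5.13-fold, less than Tnfsf12 (6.95-fold), Tnfsf13 (6.40-fold), Cd40lg (6.21-fold) and Tnfrsf21 (5.95-fold). Ltb was 50.9, 44.7, 70.2, 41.0 and 56.7 FPKM in the Solution libraries and 4.44, 3.70, 7.66, 7.04 and 28.5 FPKM in the Plerixafor libraries. It was 9.59, 34.3, 44.7, 39.0 and 35.2 FPKM with anti-PD-1 and 20.5, 17.8, 18.4, 8.07 and 0.634 FPKM with the Combination. No antagonist library reached the Solution range, with Plerixafor library 5 the nearest and Combination library 5 the lowest of all. With the antagonist alone the log2 fold change came to -2.59 (adjusted p = 0.00099, SE 0.62). The summed T cell markers in the same Plerixafor libraries were 35.1, 22.4, 48.3, 35.0 and 132 FPKM, highest in library 5, as for Ltb.

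The sequences upstream of the start are shown for the receptors that rose and have an entry in the table used, Tnfrsf12a and Tnfrsf23, and for Ltb, a member that fell. They are the 250 bases before the start of the gene, from RefSeq on GRCm38.p6, written 5′ to 3′ on the strand of the gene: chr17:23677450-23677699 on the minus strand for Tnfrsf12a, chr7:143685876-143686125 on the minus strand for Tnfrsf23 and chr17:35194257-35194506 on the plus strand for Ltb. Capitals mark a match to an NF-kB motif (GGGA, any base, TT, any base, CC), searched on both strands.
Tnfrsf12a: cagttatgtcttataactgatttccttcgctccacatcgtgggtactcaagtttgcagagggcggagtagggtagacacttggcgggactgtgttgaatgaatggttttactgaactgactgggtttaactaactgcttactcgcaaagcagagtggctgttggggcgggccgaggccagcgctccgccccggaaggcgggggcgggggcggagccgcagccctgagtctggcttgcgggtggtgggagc
Tnfrsf23: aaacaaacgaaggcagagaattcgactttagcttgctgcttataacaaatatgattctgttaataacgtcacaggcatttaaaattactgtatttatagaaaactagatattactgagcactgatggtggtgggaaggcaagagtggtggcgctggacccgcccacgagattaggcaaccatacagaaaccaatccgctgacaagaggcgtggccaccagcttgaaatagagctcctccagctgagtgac
Ltb: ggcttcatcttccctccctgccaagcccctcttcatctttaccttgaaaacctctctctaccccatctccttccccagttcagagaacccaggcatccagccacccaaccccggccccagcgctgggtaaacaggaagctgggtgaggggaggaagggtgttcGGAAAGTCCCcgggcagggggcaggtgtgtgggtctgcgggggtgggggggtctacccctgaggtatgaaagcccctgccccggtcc
The match in Ltb begins 87 bases before the start, and the windows of Tnfrsf12a and Tnfrsf23 held none. The motif was present in 322 of 32851 promoters of the same length, 0.98%, and in 2 of the 30 member promoters, those of Ltb and Tnfrsf9, where 26 of the 35 members had an entry. An AP-1 motif, TGANTCA, searched in the same way, was present in 2217 promoters, 6.75%, in 6 of the member promoters and in none of the 3 shown. These matches describe letters in a window. The motifs were chosen after the data were seen.

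CD40, a receptor on B cells, dendritic cells and macrophages, receives help from CD40 ligand on activated T cells. Cd40 was 12.6, 15.5, 28.9, 20.6 and 15.9 FPKM in the Solution libraries, 5.10, 3.30, 5.30, 4.20 and 13.5 FPKM with Plerixafor, 2.48, 7.31, 12.4, 15.1 and 7.36 FPKM with anti-PD-1 and 7.82, 8.40, 7.71, 4.06 and 1.62 FPKM with the Combination. Plerixafor library 5 alone overlapped the Solution range among the antagonist libraries. In the limma fit Plerixafor changed it by -1.52 (adjusted p = 0.00313, SE 0.42) in log2. Cd40lg was 3.23, 2.12, 2.33, 2.91 and 2.59 FPKM in the Solution libraries, 0.131, 0.170, 0.346, 0.322 and 1.15 FPKM with Plerixafor, 0.241, 1.88, 2.10, 2.30 and 1.87 FPKM with anti-PD-1 and 0.600, 0.715, 0.780, 0.302 and 0 FPKM with the Combination. The antagonist libraries were all below the Solution libraries, and Combination library 5 was listed at 0. Plerixafor gave a log2 fold change of -1.39 (adjusted p = 4.26e-05, SE 0.24). Cd40lg entered the test through 5 Solution, 4 anti-PD-1 and 1 Plerixafor library at 1 FPKM or more, and no Combination library. Its calls as lower with the Combination are in part favoured by that filter.

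HVEM, encoded by Tnfrsf14, binds the T cell costimulator LIGHT, encoded by Tnfsf14. Tnfrsf14 was 23.0, 20.2, 35.5, 25.7 and 29.1 FPKM in the Solution libraries, 5.73, 2.54, 7.85, 3.43 and 18.2 FPKM with Plerixafor, 4.42, 18.7, 25.7, 24.1 and 13.3 FPKM with anti-PD-1 and 9.79, 7.79, 8.17, 4.24 and 1.22 FPKM with the Combination. The antagonist libraries lay below the Solution range, Plerixafor library 5 closest to it. Against Solution, the Plerixafor log2 fold change was -1.94 (adjusted p = 0.00159, SE 0.49). Tnfsf14 was 5.39, 6.57, 5.77, 7.96 and 7.20 FPKM in the Solution libraries, 1.29, 0.427, 1.48, 0.769 and 2.55 FPKM with Plerixafor, 0.840, 3.18, 5.13, 4.42 and 2.95 FPKM with anti-PD-1 and 1.51, 1.77, 1.38, 0.750 and 0.457 FPKM with the Combination. Solution libraries were above all 15 treated libraries. With Plerixafor the log2 fold change was -1.78 (adjusted p = 1.85e-05, SE 0.28).

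The B cell survival system consists of the ligands BAFF (Tnfsf13b) and APRIL (Tnfsf13) and the receptors TACI (Tnfrsf13b), the BAFF receptor (Tnfrsf13c) and BCMA (Tnfrsf17). Tnfrsf13b was 8.33, 6.41, 7.55, 8.56 and 6.25 FPKM in the Solution libraries, 1.31, 1.2, 1.98, 1.28 and 4.06 FPKM with Plerixafor, 1.38, 7.01, 6.91, 7.94 and 4.18 FPKM with anti-PD-1 and 2.23, 2.08, 2.07, 1.63 and 0.650 FPKM with the Combination. It was lower in every antagonist library than in any Solution library, with a log2 fold change of -1.57 (adjusted p = 0.00016, SE 0.31) for Plerixafor. Tnfsf13b was 5.38, 3.71, 6.16, 3.17 and 3.76 FPKM in the Solution libraries, 1.61, 1.52, 2.78, 1.78 and 5.96 FPKM with Plerixafor, 2.27, 4.26, 4.63, 2.69 and 3.21 FPKM with anti-PD-1 and 2.77, 3.57, 2.92, 1.84 and 0.762 FPKM with the Combination. Plerixafor library 5 was within the Solution range and the other 4 were below it. The log2 fold change with Plerixafor, -0.63 (adjusted p = 0.0513, SE 0.28), missed the threshold, and without that library it was -0.88 with an adjusted p of 0.00374. Tnfsf13 was 1.12, 1.32, 1.23, 1.44 and 1.5 FPKM in the Solution libraries and 0.130, 0.0952, 0.226, 0.0685 and 0.514 FPKM with Plerixafor. It was 0.324, 0.968, 1.53, 1.56 and 0.929 FPKM with anti-PD-1 and 0.481, 0.188, 0.478, 0.0963 and 0.127 FPKM with the Combination. No antagonist library reached 1 FPKM, so Tnfsf13 entered the test only through 5 Solution and 2 anti-PD-1 libraries. Its call as lower is in part favoured by that filter. The log2 fold change of Tnfsf13 with Plerixafor was -0.95 (adjusted p = 2.19e-05, SE 0.15). Tnfsfm13 shares 983 bases of its exons. Tnfrsf13c, at 0.994 ± 0.730 FPKM in the Solution group and 0.559 ± 0.428 FPKM with Plerixafor, did not pass (-0.31, adjusted p = 0.262). Summed B and plasma cell markers (7 genes) ran from 50.6 to 481 FPKM in the Solution group and from 3.90 to 101 FPKM in the Plerixafor group, with Pax5 at 0 in at least 1 Plerixafor library.

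The remaining tested members are costimulatory or bone-remodelling ligands and receptors. 4-1BB, encoded by Tnfrsf9 and induced on activated T cells, was 12.9 ± 5.65 FPKM in the Solution group and 7.45 ± 4.42 FPKM with Plerixafor, and the groups overlapped (-0.77, adjusted p = 0.19). Its ligand Tnfsf9 fell from 4.11 ± 1.04 to 1.15 ± 0.527 FPKM, a log2 fold change of -1.26 (adjusted p = 0.000116, SE 0.24). CD30 ligand, Tnfsf8, fell from 3.34 ± 0.658 to 0.876 ± 0.501 FPKM, a log2 fold change of -1.23 (adjusted p = 4.24e-05, SE 0.21). RANK, encoded by Tnfrsf11a and needed for osteoclasts and lymph nodes, fell from 3.94 ± 0.317 to 1.07 ± 0.546 FPKM, a log2 fold change of -1.28 (adjusted p = 9.72e-05, SE 0.24). Its ligand Tnfsf11 (RANKL) and the soluble decoy Tnfrsf11b (osteoprotegerin) fell too, with log2 fold changes of -0.87 and -0.98 and adjusted p-values of 0.00632 and 0.0055. For Tnfsf9, Tnfsf8, Tnfrsf11a, Tnfsf11 and Tnfrsf11b the Plerixafor and Solution ranges did not overlap. The share of all tested genes without overlap was not computed, for this or any other pair of groups. A lack of overlap therefore does not set a member apart.

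The 6 members below the level needed for the test stayed low in nearly all libraries. Tnfsf4 (OX40 ligand) and Tnfsf18 (GITR ligand) had means of 0.143 to 0.332 FPKM in every group. Tnfrsf17, Tnfrsf8 (CD30) and Tnfsf15 (TL1A) had Solution means of 1.10 ± 0.914, 0.906 ± 0.153 and 0.880 ± 0.237 FPKM and Plerixafor means of 0.161 ± 0.314, 0.209 ± 0.193 and 0.164 ± 0.184 FPKM. When all genes were tested without the level filter, these 3 fell with Plerixafor, with adjusted p-values of 0.00647, 8.67e-05 and 0.000618. Tnfrsf19, a receptor known as TROY, was the exception in pattern: it was 7.43, 2.68, 1.31, 0.0411 and 2.86 FPKM in anti-PD-1 libraries 1 to 5 and at most 0.884 FPKM in any other library. Its log2 fold change in anti-PD-1 without the filter was 1.29 (adjusted p = 0.0311), and the summed muscle markers of the same libraries were 73499, 20982, 8800, 132 and 25948 FPKM, in the same order of libraries from high to low. The order differed in the Solution group. Tnfrsf19 was 0.884 FPKM in Solution library 3, with a muscle sum of 27.2 FPKM, and 0.0658 FPKM in library 1, with a muscle sum of 1164 FPKM. The part of muscle RNA in the level of Tnfrsf19 was not tested.

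**Figure D3:**
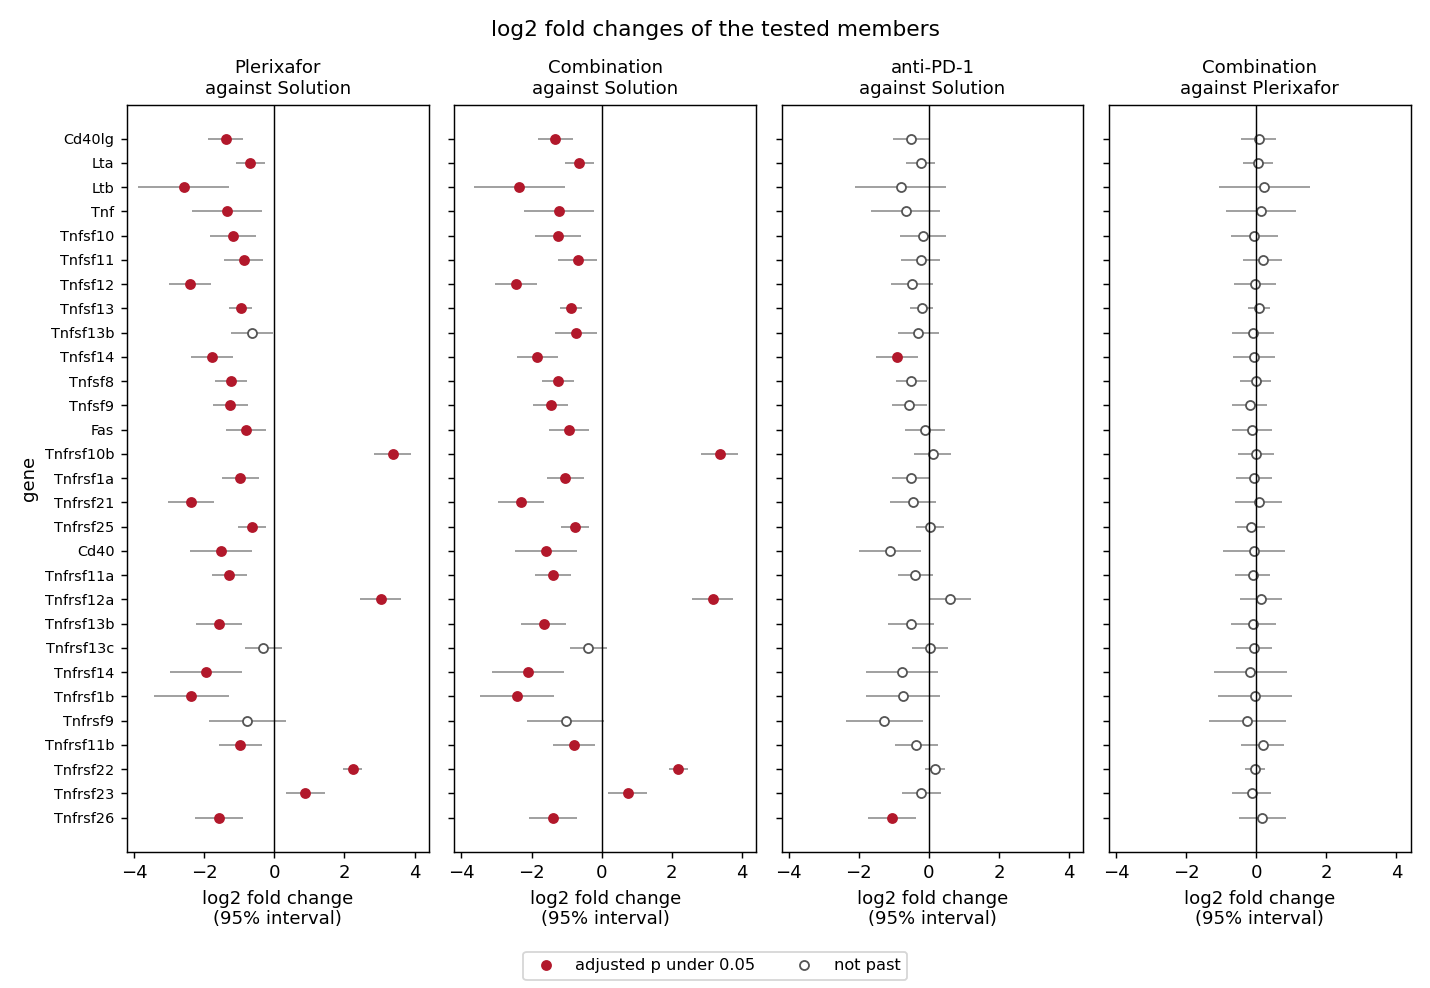
Log2 fold change (horizontal, on the log2(FPKM + 1) scale) of the 29 tested members (vertical) in 4 comparisons, with 95% intervals from limma; the legend gives which passed an adjusted p of 0.05. In Plerixafor and Combination tumours 4 receptors lie to the right of 0 and most members to the left, whereas Combination against Plerixafor is centred near 0.

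Combination against Solution asks the same of tumours given both agents. Of 29 members, 23 fell, where 34.1% of all tested genes were called lower, and 4 rose, where 42.0% were called higher. The median log2 fold change was -1.22 for the members and 0.10 for all tested genes. All 12 tested ligands fell. The receptors that rose were again Tnfrsf10b at 3.36 (adjusted p = 1.11e-09, SE 0.25), Tnfrsf12a at 3.17 (adjusted p = 1.1e-08, SE 0.28), Tnfrsf22 at 2.19 (adjusted p = 9.87e-11, SE 0.13) and Tnfrsf23 at 0.75 (adjusted p = 0.0158, SE 0.27). This comparison and that of Plerixafor use the same 5 Solution libraries, so their likeness is no independent evidence. On the log2(FPKM + 1) scale the largest falls were those of Tnfsf12 at -2.45 (adjusted p = 4.23e-07, SE 0.29) and Tnfrsf1b at -2.40 (adjusted p = 0.000302, SE 0.50). Ltb followed at -2.36 (adjusted p = 0.00211, SE 0.62), and was -1.69 (adjusted p = 0.00409) without Combination library 5. Tnfrsf21 changed by -2.30 (adjusted p = 2.97e-06, SE 0.32), Tnfrsf14 by -2.11 (adjusted p = 0.000795, SE 0.49) and Tnfsf14 by -1.83 (adjusted p = 1.31e-05, SE 0.28). The calls of 5 members rested on single libraries. Tnf, at -1.22 (adjusted p = 0.0265, SE 0.47), lost its call without Solution library 5, Combination library 4 or Combination library 5, with adjusted p-values of 0.0641, 0.0538 and 0.0831. Tnfsf11, Tnfsf13b and Tnfrsf11b each lost theirs without Combination library 5, at adjusted p-values of 0.0898, 0.0911 and 0.072, and without at least 1 other library, and Tnfrsf23 without Solution library 3, at 0.0555.

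Combination against Plerixafor asks what the antibody added to the antagonist. No member passed the test, and neither did any gene (0.0% of all tested genes). At an unadjusted p under 0.05 there were 60 genes and no member, and limma-voom on the recovered reads called no gene. The members' log2 fold changes lay between -0.26 (Tnfrsf9) and 0.23 (Ltb), with a median of -0.04 beside 0.00 for all tested genes, and their 95% intervals reached from -1.355 to 1.527. For Tnfrsf10b the difference was -0.01 (SE 0.25) and for Tnfrsf22 -0.04 (SE 0.13), whereas for Ltb, at 0.23 (SE 0.62), a wider difference in either direction could not be told from none. Library 5 stood at the edge of both groups: Plerixafor library 5 was the highest of its group for Ltb, Tnfrsf1b, Tnf and Cd40, and Combination library 5 the lowest of its group for the same 4. The interaction, the effect of anti-PD-1 with the antagonist minus its effect without, passed for no member and no gene (0.0%). It had an unadjusted p under 0.05 for 1957 genes and 2 members, limma-voom called 1 gene and no member, and the lowest adjusted p of a member was 0.242, for Tnfrsf26.

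The antibody alone was compared with Solution. No tested member rose, where 8.38% of all tested genes were called higher, and 2 fell, Tnfrsf26 and Tnfsf14, where 3.08% of all tested genes were called lower. Tnfrsf19, left out by the level filter, was called higher in the limma fit without that filter (1.29, adjusted p = 0.0311). The median log2 fold change of the members was -0.45, beside -0.11 for all tested genes. Tnfrsf26 changed by -1.05 (adjusted p = 0.0432, SE 0.32) and Tnfsf14 by -0.92 (adjusted p = 0.0445, SE 0.28). Both calls were at the edge of the test. Each was lost when any of Solution libraries 1, 2, 4 and 5 or anti-PD-1 libraries 1, 2 and 5 was left out, and Tnfsf14 also without Solution library 3. Without all 3 of those anti-PD-1 libraries, which carry the most muscle RNA, the changes were -0.54 (adjusted p = 0.908) and -0.38 (adjusted p = 0.94). Only anti-PD-1 libraries 3 and 4 remained in that run, so its p-values rest on few libraries. Library 3 still had summed muscle markers of 8800 FPKM, above every Solution library. Leaving out anti-PD-1 library 4 instead raised the number of members called to 7, adding falls of Cd40, Tnfrsf1a, Tnfrsf9, Tnfsf8 and Tnfsf9. The share of all tested genes called in that run is not given here, so the rise in number does not set the members apart. The 4 receptors that rose with the antagonist had anti-PD-1 log2 fold changes of 0.11 (Tnfrsf10b), 0.61 (Tnfrsf12a), 0.17 (Tnfrsf22) and -0.22 (Tnfrsf23), none past the test. Tnfrsf12a passed, at 0.91 (adjusted p = 0.0123), when anti-PD-1 library 3 was left out.

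Combination against anti-PD-1 asks what the antagonist added to the antibody, and uses no Solution library, though its Combination libraries also enter the comparisons above. Of 29 members, 15 fell, where 30.9% of all tested genes were called lower, and 4 rose, where 43.7% were called higher, with a median of -0.67 beside 0.15 for all tested genes. The 4 that rose were Tnfrsf10b at 3.26 (adjusted p = 1.69e-09, SE 0.25), Tnfrsf12a at 2.56 (adjusted p = 1.85e-07, SE 0.28), Tnfrsf22 at 2.02 (adjusted p = 3.2e-10, SE 0.13) and Tnfrsf23 at 0.97 (adjusted p = 0.00293, SE 0.27). For each of them the 5 Combination libraries lay above the 5 anti-PD-1 libraries. On the log2(FPKM + 1) scale Tnfsf12 fell most, at -1.98 (adjusted p = 5.7e-06, SE 0.29), then Tnfrsf21 at -1.85 (adjusted p = 3.68e-05, SE 0.32) and Tnfrsf1b at -1.67 (adjusted p = 0.00621, SE 0.50). Ltb, at -1.55 (adjusted p = 0.0308, SE 0.62), was -0.88 (adjusted p = 0.106) without Combination library 5 and also lost its call without any of anti-PD-1 libraries 2, 3, 4 and 5 or Combination library 4. Tnfrsf14, at -1.33 (adjusted p = 0.0205, SE 0.49), lost its call without anti-PD-1 library 3, anti-PD-1 library 4 or Combination library 5. Tnfrsf13b also fell, at -1.15 (adjusted p = 0.00273, SE 0.31). Of the 12 tested ligands 8 fell, and Tnf, Lta, Tnfsf11 and Tnfsf13b did not pass. Without anti-PD-1 libraries 1, 2 and 5 the number of members called went from 19 to 26. The share of all tested genes called in that run is not given here, so this count has no background. Under median-of-ratios scaling anti-PD-1 library 1 had the lowest factor, 0.655. This scaling moved the median of all tested genes in this comparison from 0.15 to -0.01. With it 4 members rose and 17 fell. Of all tested genes it called 4846 higher and 4687 lower, where the main fit called 5547 higher and 3915 lower. The number called lower thus grew among all tested genes as well as among the members.

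Within the 10 libraries given the antagonist, the amount of T cell RNA differed from 7.55 to 132 FPKM of summed markers, and most members followed it. Correlations of log2(FPKM + 1) with log2 of the marker sum + 1 were computed for the 29 tested members against the T cell and the macrophage sums, within the 10 Plerixafor and Combination libraries and within the 10 others, 116 in all, with 100000 permutations and Benjamini-Hochberg adjustment. All points share a library with their marker sum. In the antagonist libraries 23 members correlated positively with the T cell sum and 2 negatively at an adjusted permutation p under 0.05, and the median r was 0.88. Of all 12687 tested genes 25.1% correlated positively and 14.7% negatively with the same sum, at an unadjusted p no larger than the largest called among the members, with a median r of -0.04. For the macrophage sum 23 members were positive and 1 negative, also with a median r of 0.88, beside 28.3% positive among all tested genes and 2790 of the 12687 negative. By rank correlation 22 members were positive and 1 negative with either sum. The shares of all tested genes by rank were not computed, here or in the other 10 libraries, so the rank counts have no background. Ltb had r = 0.99 and rho = 0.98 with the T cell sum (adjusted permutation p = 0.00032 and 0.00029), and r = 0.97 without the libraries farthest from the median, Plerixafor library 5 and Combination library 5. Tnfrsf1b had r = 0.96 and rho = 0.99 (0.00032 and 0.00029 by permutation), and r = 0.95 without them.

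The receptors that rose did not follow the T cell sum upward. Tnfrsf22 had r = -0.11 and rho = 0.10 (adjusted permutation p = 0.8 and 0.82), and -0.06 without the farthest libraries. Tnfrsf10b had r = -0.65 and rho = -0.81 (adjusted permutation p = 0.06 and 0.017), and r = -0.55 without them. Tnfrsf23 had r = -0.71 and rho = -0.62 (0.027 and 0.093 by permutation), and r = -0.67 without them. Tnfrsf12a had r = -0.67 and rho = -0.66 (0.044 and 0.075 by permutation), but r = -0.24 without them, so that its relation rests on those libraries. Tnfrsf26, although it fell with the antagonist, had r = 0.00 and rho = 0.27 (0.99 and 0.5 by permutation), and r = 0.50 without them. With the macrophage sum in the antagonist libraries Tnfrsf10b had r = -0.8 and rho = -0.78 (adjusted permutation p = 0.0072 and 0.025). Without the farthest libraries its r was -0.7. Tnfrsf12a, Tnfrsf22 and Tnfrsf23 did not pass with that sum. Tnfrsf26 had r = 0.21 with the macrophage sum in the antagonist libraries. In the 10 others it had r = 0.90 and rho = 0.89 with that sum (adjusted permutation p = 0.0021 and 0.0047), and r = 0.67 without anti-PD-1 libraries 1 and 2. The T cell sums ran from 194 to 325 FPKM with Solution and from 55.7 to 197 FPKM with anti-PD-1. The macrophage sums also ran higher with Solution. Group and marker sum were thus partly confounded in these 10 libraries, and the permutations did not keep to groups. In the 10 Solution and anti-PD-1 libraries 20 members correlated positively with the T cell sum by r and 1 negatively, beside 40.7% and 15.6% of all tested genes. The median r of all tested genes in these libraries was 0.65 with the T cell sum and 0.64 with the macrophage sum. A typical gene thus also had a positive r there. By rank correlation 5 were positive (Cd40, Lta, Ltb, Tnfrsf14 and Tnfsf8) and none negative, and without the libraries farthest from the median, Solution library 3 and anti-PD-1 library 1, the median r went from 0.82 to 0.49, so that the count by r rests on those libraries; the r of Ltb was 0.99 with them and 0.96 without. For the macrophage sum 19 members were positive and none negative by r, beside 37.8% and 17.1% of all tested genes by r. By rank 5 were positive and none negative, and the median r went from 0.87 to 0.24 without anti-PD-1 libraries 1 and 2. The lowest T cell sum of these 10 was that of anti-PD-1 library 1, 55.7 FPKM, inside the range of the Plerixafor group. In that library Ltb was 9.59 FPKM and Tnfrsf1b 11.2 FPKM, both inside the Plerixafor range. Tnfrsf10b was 1.12 FPKM and Tnfrsf22 0.823 FPKM there, in FPKM the lowest of all 20 libraries for each. The proliferation markers of anti-PD-1 library 1 summed to 13.4 FPKM, also the lowest, and its muscle markers to 73499 FPKM. Its median-of-ratios factor, 0.655, was the lowest too, so a typical gene has a low FPKM in it. What sets these levels in this library was not tested.

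**Figure D4:**
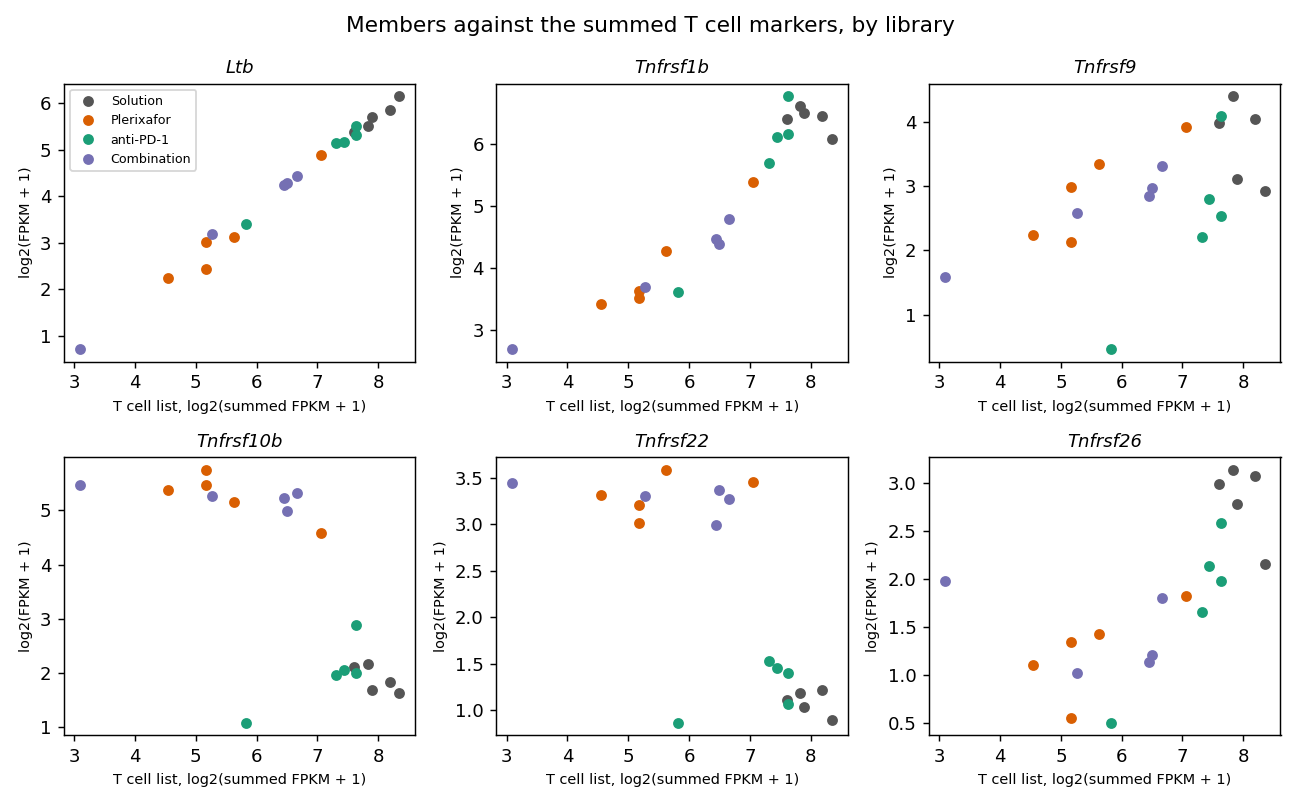
Level of 6 members (vertical, log2(FPKM + 1)) against the sum of 11 T cell markers (horizontal, log2(summed FPKM + 1)) in each of the 20 libraries, coloured by group. Ltb and Tnfrsf1b rise with the T cell sum across the antagonist libraries. Anti-PD-1 library 1, which has a T cell sum of 55.7 FPKM and the most muscle RNA, is low for Ltb, Tnfrsf1b, Tnfrsf10b and Tnfrsf22.

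The other genes of the pathway were described from lists by role, to be read against the 42.3% of all tested genes that rose and the 33.2% that fell with Plerixafor, and their median of 0.13. Of 9 superfamily genes outside the rule, 7 were tested and 5 fell with Plerixafor, none rose, and the median log2 fold change was -0.75. Cd27, a T cell costimulatory receptor, changed by -2.12 (SE 0.37, adjusted p = 4.44e-05), Fasl, the ligand of Fas, by -1.40 (SE 0.28, adjusted p = 0.00021) and Eda by -0.88 (SE 0.15, adjusted p = 4.07e-05). Eda2r fell with Plerixafor (-0.75, adjusted p = 0.0314) and rose with anti-PD-1 (1.26, adjusted p = 0.0177). The most muscle RNA was in anti-PD-1 libraries, and the part of that RNA in the rise of Eda2r was not tested. Of 20 adaptors, TRAFs and death signalling genes, all tested, 4 rose and 6 fell with Plerixafor, both below the shares of all tested genes, with a median of 0.16. Traf2, an adaptor of the TNF receptors, rose by 0.75 (SE 0.09, adjusted p = 6.51e-07), Traf4 by 1.27 (SE 0.18, adjusted p = 3.96e-06) and Rbck1, a subunit of the linear ubiquitin ligase, by 0.72 (SE 0.13, adjusted p = 6.88e-05). Among those that fell were Fadd, the adaptor of the death receptors (-0.52, adjusted p = 0.000478), Casp8, its protease (-0.79, adjusted p = 0.0127), and Ripk3, a kinase of necroptosis (-1.43, adjusted p = 0.000745).

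Of 17 NF-kB pathway genes, 5 rose and 4 fell with Plerixafor, again both below the shares of all tested genes, with a median of -0.19. Neither count sets these lists apart, and the genes named describe single genes. Tab1, a partner of the kinase TAK1, rose by 1.52 (SE 0.12, adjusted p = 2.03e-09) and Nfkbib, an inhibitor of NF-kB, by 0.61 (SE 0.09, adjusted p = 5.07e-06), whereas Rel changed by -0.76 (SE 0.17, adjusted p = 0.000581) and Ikbkg by -0.50 (SE 0.10, adjusted p = 0.000199). Of 14 genes known as TNF targets, 12 were tested, 6 fell and 1 rose with Plerixafor, and the median was -0.99. Tnfaip6 changed by -3.03 (SE 0.33, adjusted p = 1.57e-07), Tnfaip3, the feedback inhibitor A20, by -1.62 (SE 0.36, adjusted p = 0.000575), and the adhesion molecules Vcam1 and Icam1 by -1.99 (adjusted p = 0.000836) and -1.93 (adjusted p = 0.00152). Ier3 rose by 1.06 (SE 0.34, adjusted p = 0.00899). Of 4 genes for ligand shedding 2 fell: Adam17, the protease that releases TNF, changed by -1.17 (SE 0.26, adjusted p = 0.000523) and Rhbdf2, its cofactor, by -0.65 (SE 0.22, adjusted p = 0.0107). With the Combination the counts were 5 higher and 6 lower of the adaptors, 5 and 6 of the NF-kB genes, 1 and 6 of the TNF targets and 0 and 2 of the shedding genes. With anti-PD-1, 1 adaptor fell (Traf5, -0.63, adjusted p = 0.0316), no NF-kB gene passed, and of the TNF targets Sod2 rose (0.54, adjusted p = 0.0457) and Tnfaip6 and Ier3 fell (-1.43 and -1.23, adjusted p = 0.0165 and 0.0286).

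Members that neighbour each other in the genome moved together in some places and apart in others. The RefSeq table placed 9 pairs of members next to each other or with 1 coding gene between them. Ltb, Tnf and Lta, in one cluster, all fell with Plerixafor (-2.59, -1.35 and -0.69), as did Tnfsf12 and Tnfsf13 (-2.41 and -0.95) and Tnfsf9 and Tnfsf14 (-1.26 and -1.78). In the cluster of Tnfrsf26, Tnfrsf22 and Tnfrsf23 the first fell (-1.57) and the others rose (2.23 and 0.88).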

How the data were processed

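RNA from 20 U14 tumour samples was sequenced from a stranded mRNA kit on a NovaSeq instrument, per the labels' protocols. The authors deposited 1 table of FPKM values for 18722 genes, 1 column per library. The submitters' processing notes name the build GRCm39 and the tools StringTie 2.1.4, HTSeq 0.11.2, DESeq2 1.28.1 and HISAT2 2.1.0, without their roles; which of them made the deposited FPKM is not stated there. For all 18722 genes the values divided by the smallest step of the gene were whole (tolerance 0.02), which gave the reads per library; these carry no molecular identifiers. Libraries were not copies of each other (median chi-square per gene 1.909 to 71.46 within groups).

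Values were taken as log2(FPKM + 1), with a pseudocount of 1, and fitted by group over all 20 libraries with limma 3.58.1 (R 4.3.3), using trended empirical Bayes, for genes at 1 FPKM or more in at least 5 libraries. The 6 comparisons were adjusted separately. The fit was tested on simulated data. Members, gene lists and alternatives were chosen with earlier results of these data known. Values in every library are given for members past the threshold (up to the 6 largest rises and falls in each comparison), for Tnf, Fas, Tnfrsf1a, Tnfrsf1b and Cd40, and for their partners. Of each pathway list up to 4 genes with the smallest p were named in a comparison; Fadd, Casp8 and Ripk3 were added after their values were seen. Alternatives were other pseudocounts, filters and scalings, limma-voom on recovered reads, the groups alone, the replicate number as a block and leaving out libraries. Correlations of all tested genes with the marker sums were added after the data were seen. Promoter sequences, names and neighbours came from RefSeq on GRCm38.p6, and exon overlaps from GENCODE M21.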

Additional observations from a re-analysis of the deposited data

Results flagged for a closer look

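Among 116 combinations of a tested member and a group, 7 had a library whose gap to the nearest other, divided by the range of the group, exceeded Dixon's 95% critical value for 5 libraries; chance gives about 1 in 20. In the Plerixafor group library 5 was the highest for Tnfsf12 at 4.48 FPKM (ratio 0.956), Cd40lg at 1.15 FPKM (0.729) and Tnfrsf21 at 7.10 FPKM (0.724). In the anti-PD-1 group library 1 was the lowest for Cd40lg at 0.241 FPKM (0.858), Ltb at 9.59 FPKM (0.825) and Tnfrsf1a at 30.7 FPKM (0.728). In the Solution group library 3 was the lowest for Tnfrsf11a at 3.39 FPKM (0.712). Plerixafor library 5 had the highest T cell, macrophage and fibroblast marker sums of its group (132, 6169 and 1910 FPKM), and anti-PD-1 library 1 the lowest of its group (55.7, 1539 and 1651 FPKM).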

How the results depend on the processing

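No member changed direction among called results under any alternative run. The counts below are of members only. Shares of all tested genes in the alternative runs are not given beside them, so a change in count does not set the members apart. With Plerixafor against Solution 26 members were called, and the count was 26 or 27 with any 1 library left out, 26 with the replicate number as a block, 26 with a pseudocount of 0.1, 27 with limma-voom and with median-of-ratios scaling, 29 with no filter, where 35 members were tested, and 16 with a minimum of 5 FPKM, which tests fewer members. With Combination against Solution 27 were called, 23 to 27 with 1 library left out, 27 with the replicate block and 16 at the minimum of 5 FPKM. With Combination against anti-PD-1 19 were called, 17 to 25 with 1 library left out, 18 with the replicate block (where Ltb had an adjusted p of 0.0501) and 18 with the groups compared alone (Ltb, 0.0765). With anti-PD-1 against Solution 2 were called, and 0 with a pseudocount of 0.1, the minimum of 5 FPKM, the groups alone, the replicate block, limma-voom, or without anti-PD-1 libraries 1, 2 and 5; with no filter both lost their call (Tnfrsf26 0.0524, Tnfsf14 0.0539) and the 1 called was Tnfrsf19, higher, a member left out by the filter; the count was 0 to 7 with 1 library left out. Combination against Plerixafor and the interaction stayed at 0 in each alternative run. Tnfsf13b with Plerixafor passed under median-of-ratios scaling (adjusted p = 0.0199) and limma-voom (0.0434), and Tnfrsf9 with the Combination in the fit of the groups alone (0.0214). The replicate numbers did not pair the samples: over 30 same-numbered pairs the correlation of deviations ran from -0.753 to 0.506, and 5 pairs correlated best with their own number. Depth limits the members under 1 FPKM. The cause of these changes was not tested.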
